A study of Homo sapiens with 12 samples.

Results

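The 9 genes described here encode 3 WNT ligands (WNT2, WNT5A and WNT5B), 4 secreted antagonists of WNT signalling (SFRP1, DKK1, DKK2 and DKK3) and 2 genes that are widely used as readouts of its β-catenin branch (AXIN2 and LEF1). They were chosen by gene symbol from a table of 16383 genes, all 9 were in it, and all 9 were among the 11242 genes that passed the filter on low values. RNA was measured by sequencing of polyadenylated transcripts in IMR90, a fibroblast line derived from human lung that the labels give as wild type. There were 4 groups of 3 libraries. The first was proliferating cells with no treatment, and the other 3 had been irradiated with 20 Gy in 10 min and harvested 11 days later. Of the irradiated groups, 1 was given the solvent DMSO, 1 was given 2 µM palbociclib, which blocks the cell-cycle kinases CDK4 and CDK6, and 1 was given 2 µM ruxolitinib, an inhibitor of the Janus kinases JAK1 and JAK2. Both inhibitors were added on days 4, 6, 8 and 10. The labels give no harvest day for the proliferating cells, so the radiation, the solvent and the time in culture cannot be told apart in a comparison with them, and no group was proliferating and given an inhibitor. The labels do not say that the 3 libraries of a group came from separate cultures, so p-values measure the spread between these libraries, which may be technical.

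WNT proteins are lipid-modified signals that act on nearby cells through Frizzled receptors. With the co-receptors LRP5 and LRP6 they stabilise β-catenin, which enters the nucleus and acts through transcription factors of the TCF/LEF family. WNT5A and WNT5B mostly act without β-catenin, through receptors such as ROR2, and shape cell movement and polarity. SFRP proteins bind WNT ligands outside the cell, while DKK1 and DKK2 bind LRP5 and LRP6. DKK3 is the divergent member of the DKK family and does not share their binding to the co-receptors. In the lung, fibroblasts are a source of WNT2 and WNT5A for the neighbouring epithelium.

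TCF/LEF proteins recognise DNA with a core such as CTTTGA, and other forms of it were not searched for. Both DKK1 and LEF1 are known as targets of β-catenin. The 250 bases before the start of DKK1 are shown because, of the 5 genes with a window in the RefSeq promoter table (WNT2, WNT5A, WNT5B, DKK1 and LEF1), it was the 1 that held CTTTGA. The sequence is from RefSeq on GRCh38.p14, at chr10:52314031-52314280 on the plus strand, 5′ to 3′, with matches to CTTTGA on either strand in capitals. It ends at the base before the start that GENCODE v44 also gives for DKK1, and it lies within an exon that GENCODE v44 gives for the antisense RNA PRKG1-AS1 on the other strand.
DKK1: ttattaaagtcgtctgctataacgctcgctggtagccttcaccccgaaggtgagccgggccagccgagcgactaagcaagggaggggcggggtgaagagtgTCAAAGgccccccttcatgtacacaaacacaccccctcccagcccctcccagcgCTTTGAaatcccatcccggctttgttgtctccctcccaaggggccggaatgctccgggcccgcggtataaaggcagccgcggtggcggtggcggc
The window held 2 matches, which began 149 and 95 bases before the start, and the first of them read TCAAAG because it lay on the other strand. It also held TATAAA, the TATA box core, 30 bases before the start. For scale, 11.2% of 35116 promoter windows of this length held CTTTGA on either strand and 10.7% held TATAAA, searched in the same way, and the motifs do not overlap in the DKK1 window. The RefSeq windows of WNT5A, WNT5B and LEF1 lie wholly, and that of WNT2 partly, inside those genes as GENCODE v44 draws them. For WNT5A, WNT5B and LEF1 the lack of CTTTGA therefore says nothing of the outermost starts. For WNT2 it covers only the part of the window that lies before that start. A match describes the letters only, and binding was not measured.

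The libraries held 14106799 to 21762412 reads each over the listed genes, and no pair of replicates was a copy of another. Libraries A126 (proliferating) and A120 (palbociclib) stood apart from their replicates. The chi-square per degree of freedom of their counts against a replicate was 11.9 to 25.1, beside 1.98 to 2.81 for pairs of DMSO or ruxolitinib libraries. It was 2.95 for the other proliferating pair and 6.43 for the other palbociclib pair (A119 and A121). On the fourth principal component (3% of the variance) A126 and A120 lay at -17.1 and -17.6. A119 lay at 18.6 and A121 at 1.37, so the palbociclib libraries were spread out beyond A120 alone. A126 and A120 both had the lowest WNT5A and the highest WNT5B, WNT2 and DKK1 of their group. Without A126 the number of the 9 genes called was the same in all 6 comparisons. Without A120 it was 6 in place of 8 between palbociclib and DMSO, where DKK2 and AXIN2 were lost, as they also were without A119. The number was the same in the other 5 comparisons. Between palbociclib and proliferating cells, though, WNT2 was gained without A120 (-0.71, limma adjusted p = 0.0378) and WNT5A was lost (-0.09, limma adjusted p = 0.158). What set these libraries apart was not tested. All 9 fibroblast markers were measured, and their summed normalized count ran from 820756 to 853301 in proliferating cells, 407859 to 418459 with DMSO, 650314 to 682754 with palbociclib and 514829 to 518937 with ruxolitinib. The summed level of 4 smooth muscle markers ran from 19346 to 20335, 6808 to 7494, 15942 to 18123 and 6181 to 6347 in the same order. Most of the fibroblast sum was COL1A1, COL1A2 and VIM, and most of the smooth muscle sum was ACTA2 and CNN1. Not every marker followed its sum. With DMSO 7 fibroblast markers were called lower and 2 (THY1 and DCN) higher than in proliferating cells, where 72.4% of all genes were called. PDGFRA was lowest with palbociclib (3368), and DES was 76.56 with DMSO beside 35.73 with palbociclib. The 6 epithelial markers summed to at most 45.37 and the 5 leukocyte markers to at most 40.58 in any library, and NKX2-1, which marks lung epithelium, was at 0 in all 12. The 5 endothelial markers summed to 1681 to 1949, 2389 to 2554, 3501 to 4380 and 2247 to 2254 in the same order, nearly all of it TEK (3957 ± 453.2 with palbociclib), and CDH5 was at 0 with palbociclib. The labels call the irradiated groups senescent, and 3 genes were taken to check growth arrest. In the same order of groups, mean counts of the proliferation marker MKI67 were 13062, 1011, 82.54 and 700.2. Those of CDKN1A were 3389, 29150, 14779 and 31744, and those of LMNB1 were 3911, 153.1, 31.55 and 128.8. What part these differences in marker levels had in those of the WNT genes was not tested. In RNA from whole cultures, fewer cells with a transcript and less of it per cell cannot be told apart.

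The genes fell into 5 abundant and 4 scarce transcripts. Per kilobase of exon, the mean levels of SFRP1 (percentile 98.2 of 11167 tested genes with a length), DKK3 (97.8), WNT5A (96.7), WNT5B (91.5) and DKK1 (88.8) stood high among all genes tested, while those of WNT2 (10.2), DKK2 (9.23), LEF1 (8.44) and AXIN2 (5.26) stood low. The abundant genes were read 932 times or more in every library. The scarce genes were read at most 75 times in any library, so counting error alone is a large part of their spread.

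**Figure D1:**
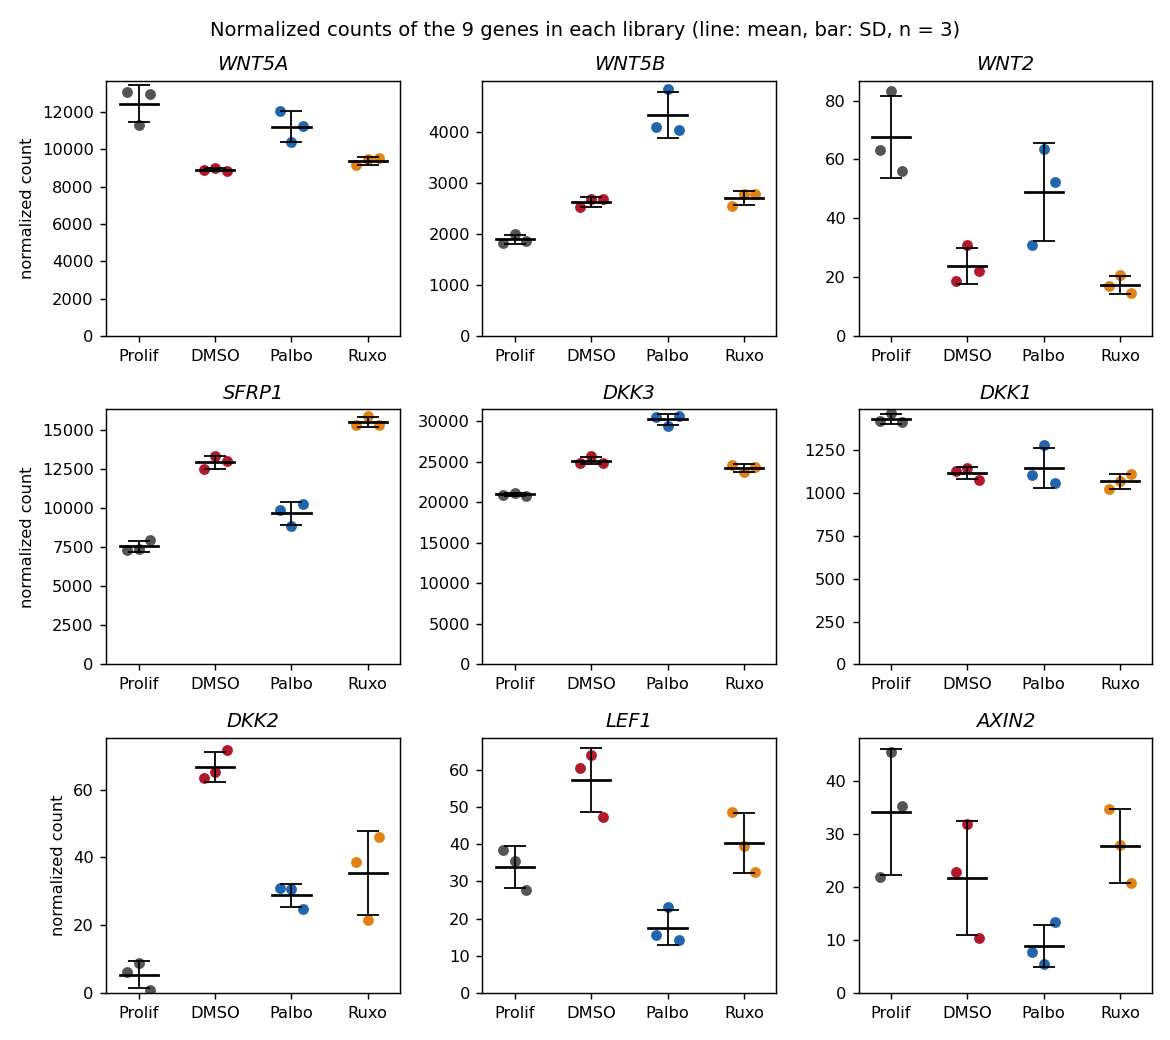
Normalized count (linear axis from 0) of each gene in the 3 libraries of each group, with the mean as a line and the SD as a bar. DKK2 lay below 10 in all proliferating libraries and above 60 in all DMSO libraries, and LEF1 lay below 25 in all palbociclib libraries.

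Between DMSO-treated irradiated and proliferating cells, 8 of the 9 genes passed the test at an adjusted p under 0.05, 5 of them higher and 3 lower, and 72.4% of all genes tested passed it too (33.0% higher, 39.3% lower). The genes that rose were DKK2, SFRP1, LEF1, WNT5B and DKK3, and the genes that fell were WNT2, WNT5A and DKK1. The share of members called is therefore near that of genes in general, and their median log2 difference of 0.26 stood beside -0.05 over all genes. Between palbociclib and DMSO 8 of 9 passed, 4 higher and 4 lower, where 48.3% of all genes did (26.0% higher and 22.3% lower, medians 0.03 and 0.02). With libraries scaled to the same total 2 of the 9 were higher and 5 lower, and after quantile normalization 2 were higher and 3 lower. Over all genes 940 were higher and 5170 lower with the same total, and 2726 were higher and 2269 lower after quantile normalization. Between ruxolitinib and DMSO 1 of 9 passed, SFRP1, where 4.52% of all genes did (1.10% higher, 3.42% lower). The libraries of the groups did not overlap for 8, 7 and 4 of the 9 genes in these comparisons, beside 75.1%, 54.8% and 31.9% of all genes tested.

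Palbociclib and ruxolitinib, given at the same dose on the same days, were also compared directly. Of the 9 genes 7 differed, 4 higher and 3 lower with palbociclib, and 40.4% of all genes did (22.8% higher, 17.6% lower). Against proliferating cells, 8 of 9 passed with palbociclib (4 higher, 4 lower, beside 73.8% of all genes, 35.2% higher and 38.6% lower). With ruxolitinib 7 of 9 did (4 higher, 3 lower, beside 72.2%, 32.6% higher and 39.5% lower). Groups did not overlap for 7 of the 9 genes in each of these 3 comparisons, beside 51.8%, 70.9% and 76.2% of all genes. The 2 inhibitor groups share the DMSO and the proliferating libraries as controls. Scaling every library to the same total moved the median of all genes by 0.23 between DMSO and proliferating cells and by -0.23 between palbociclib and DMSO on the log2 scale. With it, 64% of called genes were higher with DMSO than in proliferating cells in place of 45.7%, and 15.4% in place of 53.9% were higher with palbociclib than with DMSO. The matching figures with equal upper quartiles were 58.1% and 41.7%.

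**Figure D2:**
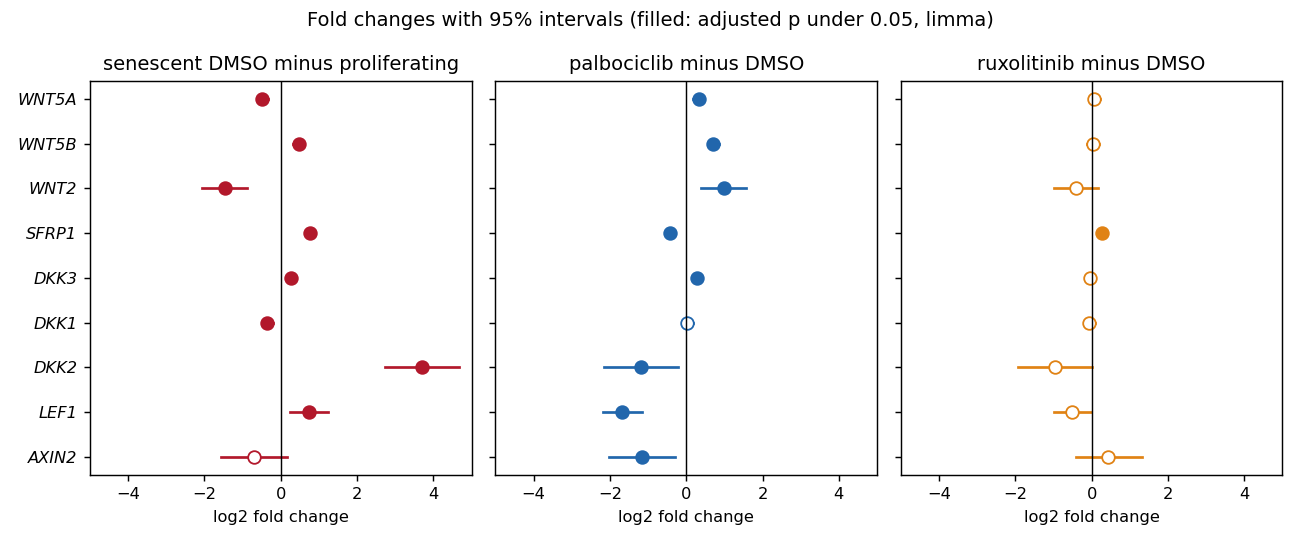
Log2 fold change (x axis) of each gene in 3 comparisons, with the 95% interval as a line and filled points for an adjusted p under 0.05 in limma. The intervals of WNT2, DKK2, LEF1 and AXIN2 are the widest, and in the ruxolitinib panel SFRP1 alone is filled. DKK1 and DKK3 change sign in the palbociclib panel under other scalings.

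WNT5A was the most abundant of the 3 ligands per kilobase of exon and was lowest in irradiated cells given DMSO or ruxolitinib. Those groups also had the lowest summed fibroblast and smooth muscle markers, though not every single marker followed these sums. Its normalized counts were 13067, 11294 and 12941 in proliferating cells, 8911, 8989 and 8842 with DMSO, 12035, 10363 and 11219 with palbociclib and 9144, 9453 and 9555 with ruxolitinib. The DMSO libraries lay below all proliferating and all palbociclib libraries, while palbociclib and proliferating libraries overlapped. Group means were 12434 ± 988.9 (SD, n = 3), 8914 ± 73.2, 11206 ± 835.8 and 9384 ± 213.6. WNT5A fell by 0.48 ± 0.06 (SE) on the log2 scale between proliferating and DMSO-treated irradiated cells (limma adjusted p = 4.60e-06) and was 0.33 ± 0.06 higher with palbociclib than with DMSO (limma adjusted p = 5.16e-04). The latter call was lost when libraries were scaled to the same total (0.10, limma adjusted p = 0.157) or quantile normalized (0.06, limma adjusted p = 0.433). Ruxolitinib and DMSO, the neighbours at the low end of the order, differed by 0.07 (95% interval -0.06 to 0.21, limma adjusted p = 0.639). At the high end, palbociclib differed from proliferating cells by -0.15 (limma adjusted p = 0.0406), a call that missed the threshold in 17 of 24 other settings.

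WNT5B, the close relative of WNT5A, moved the other way after irradiation and was highest with palbociclib. The counts were 1830, 1995 and 1853 in proliferating cells, 2517, 2686 and 2679 with DMSO, 4087, 4840 and 4042 with palbociclib and 2547, 2776 and 2778 with ruxolitinib. No palbociclib library overlapped any library of another group, and no irradiated library overlapped a proliferating one. WNT5B rose by 0.47 ± 0.07 on the log2 scale between proliferating and DMSO-treated irradiated cells (limma adjusted p = 1.30e-05), from 1893 ± 89.3 to 2627 ± 95.6. With palbociclib it rose by a further 0.71 ± 0.07 (limma adjusted p = 6.69e-07) to 4323 ± 448.2, which was also 0.67 above ruxolitinib (limma adjusted p = 1.68e-06). Ruxolitinib and DMSO differed by 0.04 (95% interval -0.11 to 0.18).

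The balance of these ligands within a library is free of any scaling factor between libraries. Per 100 counts of WNT5A there were 14, 17.7 and 14.3 counts of WNT5B in proliferating cells, 28.2, 29.9 and 30.3 with DMSO, 34, 46.7 and 36 with palbociclib and 27.9, 29.4 and 29.1 with ruxolitinib. The proliferating libraries were lowest, the palbociclib libraries highest, and DMSO and ruxolitinib overlapped between them. The highest library of the proliferating group was A126 and that of the palbociclib group A120. Means were 15.3 ± 2.03, 29.5 ± 1.09, 38.9 ± 6.84 and 28.8 ± 0.804 (SD, n = 3). This ratio was chosen after its values were seen, and an exact permutation test of 3 against 3 libraries cannot go below p = 0.10, so none is given.

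**Figure D3:**
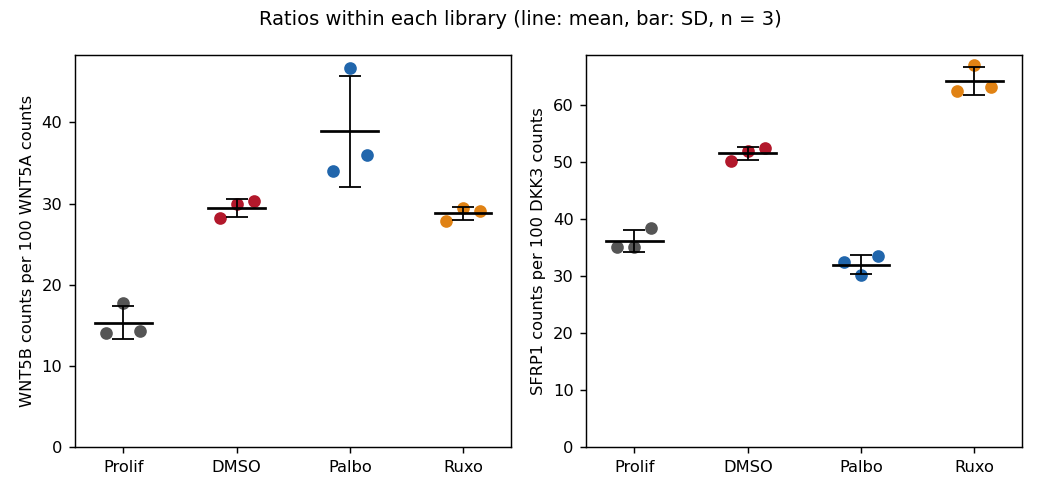
Counts of WNT5B per 100 counts of WNT5A (left) and of SFRP1 per 100 of DKK3 (right) within each library, with the mean as a line and the SD as a bar. On the left the proliferating libraries lie at 14 to 17.7 and the irradiated libraries at 27.9 to 46.7, and on the right ruxolitinib lies highest, at 62.4 to 67.

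WNT2, a ligand of the β-catenin branch, was a scarce transcript that was lower after irradiation. It was read 61, 75 and 59 times in proliferating cells, 19, 26 and 19 times with DMSO, 28, 58 and 59 times with palbociclib and 22, 23 and 16 times with ruxolitinib. Its normalized counts were 63.29, 83.18 and 56.18, then 18.81, 30.78 and 21.97, then 30.99, 63.49 and 52.41, and last 16.97, 20.71 and 14.44. The lowest palbociclib library lay next to the highest DMSO library, and the other 2 lay within or near the proliferating range. WNT2 fell by 1.47 ± 0.27 on the log2 scale between proliferating and DMSO-treated cells (limma adjusted p = 1.70e-04), with means of 67.55 ± 13.99 and 23.85 ± 6.20. With palbociclib it was 0.98 ± 0.27 above DMSO (limma adjusted p = 0.00857) and 1.40 above ruxolitinib (limma adjusted p = 8.64e-04). Palbociclib and proliferating cells differed by -0.50 (95% interval -1.08 to 0.09, limma adjusted p = 0.114), a difference called only without library A120 among the libraries left out (-0.71, limma adjusted p = 0.0378). Exons of WNT2 overlap an exon of CFTR on the other strand, and whether reads were counted by strand is not given in the sources used here.

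SFRP1, which binds WNT ligands, rose after irradiation, and it was the 1 gene of the 9 called with ruxolitinib. Its counts were 7344, 7413 and 7986 in proliferating cells, 12484, 13314 and 13043 with DMSO, 9907, 8841 and 10292 with palbociclib and 15350, 15890 and 15360 with ruxolitinib. None of the 4 groups overlapped another, in the order proliferating, palbociclib, DMSO, ruxolitinib. It rose by 0.77 ± 0.06 on the log2 scale between proliferating and DMSO-treated cells (limma adjusted p = 7.48e-09), from 7581 ± 352.1 to 12947 ± 423.6. With palbociclib it was lower than with DMSO, at 9680 ± 751.7, a change of -0.42 ± 0.06 (limma adjusted p = 2.71e-05), which left it 0.35 above proliferating cells (limma adjusted p = 4.94e-05).

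With ruxolitinib SFRP1 was 15533 ± 308.7, which was 0.26 ± 0.06 above DMSO (limma adjusted p = 0.0151). That small difference kept its direction in all 24 other settings but missed the threshold in 8 of them. The losses included 5 of the 12 fits that left out 1 library (A116, A118, A122, A123 or A124, limma adjusted p from 0.0537 to 0.084). Tests on the reads called it (edgeR adjusted p = 0.00932, DESeq2 adjusted p = 5.16e-04). Palbociclib and ruxolitinib differed by -0.69 ± 0.06 (limma adjusted p = 2.37e-07).

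DKK3 was highest with palbociclib. Its counts were 20953, 21164 and 20792 in proliferating cells, 24864, 25671 and 24872 with DMSO, 30575, 29392 and 30684 with palbociclib and 24583, 23725 and 24348 with ruxolitinib. The palbociclib libraries lay above and the proliferating libraries below all others. DKK3 rose by 0.26 ± 0.04 on the log2 scale with DMSO (limma adjusted p = 6.28e-05) and was 0.27 ± 0.04 higher with palbociclib than with DMSO (limma adjusted p = 1.56e-04). The palbociclib difference depended on the scaling. It was 0.04 with libraries scaled to the same total (limma adjusted p = 0.468) and -0.15, a called difference in the other direction, after quantile normalization (limma adjusted p = 0.0179).

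Within libraries, the ratio of SFRP1 to DKK3 separated all 4 groups. Per 100 counts of DKK3 there were 35.1, 35 and 38.4 counts of SFRP1 in proliferating cells, 50.2, 51.9 and 52.4 with DMSO, 32.4, 30.1 and 33.5 with palbociclib and 62.4, 67 and 63.1 with ruxolitinib. Palbociclib was lowest and ruxolitinib highest, and this ratio was chosen after its values were seen. On the scale of counts per kilobase of exon, DKK3 was the higher of the pair in proliferating cells (1754 against 1602) and with palbociclib (2527 against 2045). SFRP1 was the higher with DMSO (2736 against 2102) and with ruxolitinib (3282 against 2025). Transcript length was taken as the union of all annotated exons, so the crossing point depends on it, while the order of the groups does not.

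DKK1, an inhibitor of LRP5 and LRP6, was lower in all irradiated groups and did not separate them from each other. Its counts were 1419, 1464 and 1412 in proliferating cells, 1129, 1145 and 1078 with DMSO, 1102, 1280 and 1056 with palbociclib and 1023, 1070 and 1109 with ruxolitinib. All irradiated libraries lay below all proliferating ones, and A120 was the highest of them. DKK1 fell by 0.36 ± 0.07 on the log2 scale with DMSO (limma adjusted p = 1.86e-04). With libraries scaled to the same total the change was -0.13 and was not called (limma adjusted p = 0.103). Palbociclib and DMSO differed by 0.03 (95% interval -0.11 to 0.18), a value whose sign varied over the other settings, from -0.19 with the same total (limma adjusted p = 0.0259) to 0.09 without library A121. Exons of DKK1 overlap PRKG1-AS1 and exons of DKK3 overlap USP47, both on the other strand.

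DKK2, the other inhibitor of LRP5 and LRP6 here, had the largest fold difference of the 9 genes. It was read 6, 8 and 1 times in proliferating cells, 64, 55 and 62 times with DMSO, 28, 28 and 28 times with palbociclib and 50, 24 and 51 times with ruxolitinib. Its normalized counts were 6.226, 8.872 and 0.9522, then 63.35, 65.11 and 71.69, then 30.99, 30.65 and 24.87, and last 38.58, 21.61 and 46.02. Every irradiated library lay above every proliferating one, and every DMSO library lay above every library given an inhibitor. DKK2 rose by 3.71 ± 0.45 on the log2 scale with DMSO (95% interval 2.74 to 4.67, limma adjusted p = 2.21e-06), a 12.5-fold difference of means. Without library A127, which held the single read, the log2 difference was 3.00, and without A126 it was 4.17, so its size rests on few reads in proliferating cells.

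The differences of DKK2 between irradiated groups were less certain. With palbociclib it was 28.84 ± 3.44 beside 66.72 ± 4.40 with DMSO, a change of -1.19 ± 0.45 (limma adjusted p = 0.041). That call was lost in 12 of 23 other settings, 7 of them fits without 1 library (A116, A117, A118, A119, A120, A121 or A122, limma adjusted p from 0.052 to 0.113). The tests on reads kept it (edgeR adjusted p = 0.00241, DESeq2 adjusted p = 1.87e-04). With ruxolitinib it was 35.4 ± 12.5, a difference of -0.96 from DMSO that did not pass (95% interval -1.92 to 0, limma adjusted p = 0.32). DESeq2 (adjusted p = 0.0318) and a limma fit of the 2 groups alone (adjusted p = 0.0028) called that difference, and edgeR did not (adjusted p = 0.073). Palbociclib and ruxolitinib differed by -0.23 (95% interval -1.19 to 0.74).

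LEF1, a transcription factor that β-catenin binds and whose own gene it activates, was higher with DMSO than in proliferating cells and was lowest with palbociclib. It was read 37, 32 and 29 times in proliferating cells, 61, 54 and 41 times with DMSO, 14, 21 and 16 times with palbociclib and 63, 44 and 36 times with ruxolitinib. Its normalized counts were 38.39, 35.49 and 27.62, then 60.38, 63.93 and 47.41, then 15.49, 22.99 and 14.21, and last 48.61, 39.62 and 32.48. The palbociclib libraries lay below all others, and the DMSO libraries above all proliferating ones. LEF1 rose by 0.74 ± 0.23 on the log2 scale with DMSO (limma adjusted p = 0.00997), a call that was lost after quantile normalization (0.31, limma adjusted p = 0.263). With palbociclib it was 17.56 ± 4.74 beside 57.24 ± 8.70 with DMSO, a change of -1.67 ± 0.23 (limma adjusted p = 3.53e-05). It was also lower with palbociclib than with ruxolitinib (-1.16, limma adjusted p = 0.00108) and than in proliferating cells (-0.92, limma adjusted p = 0.00225). Ruxolitinib and DMSO differed by -0.51 (95% interval -1 to -0.01), which did not pass after adjustment (limma adjusted p = 0.31). Ruxolitinib and proliferating cells differed by 0.24 (95% interval -0.26 to 0.74, limma adjusted p = 0.374), and their libraries overlapped. Exons of LEF1 overlap LEF1-AS1 on the other strand.

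AXIN2, a scaffold that helps destroy β-catenin and is switched on by it as negative feedback, was also lowest with palbociclib. It was read 21, 41 and 37 times in proliferating cells, 23, 27 and 9 times with DMSO, 7, 5 and 15 times with palbociclib and 45, 31 and 23 times with ruxolitinib. Its normalized counts were 21.79, 45.47 and 35.23, then 22.77, 31.96 and 10.41, then 7.747, 5.473 and 13.32, and last 34.72, 27.91 and 20.75. Palbociclib overlapped DMSO through library A118 only, and lay below all proliferating and ruxolitinib libraries. AXIN2 was 8.85 ± 4.04 with palbociclib beside 21.71 ± 10.8 with DMSO, a change of -1.15 ± 0.41 (limma adjusted p = 0.0286). This call was lost in 7 of 23 other settings, among them the fits without A116, A117, A119 or A120 (limma adjusted p from 0.052 to 0.141).

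With palbociclib AXIN2 was also lower than with ruxolitinib (-1.60 ± 0.41, limma adjusted p = 0.00555, but -1.12 and adjusted p = 0.0571 after quantile normalization) and than in proliferating cells (-1.85 ± 0.41, limma adjusted p = 6.98e-04). Between DMSO and proliferating cells the difference of -0.70 did not pass (95% interval -1.57 to 0.16, limma adjusted p = 0.132). It did pass after quantile normalization (-1.41, limma adjusted p = 0.009) and without library A117 (-1.03, limma adjusted p = 0.0458), while without A118 it was -0.27 (limma adjusted p = 0.554). LEF1 and AXIN2 were thus both lower with palbociclib than with DMSO, while between DMSO and proliferating cells LEF1 was called and AXIN2 was not.

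The other genes of the pathway were taken in 6 lists, which were drawn up with earlier results of these data known. Of 16 other WNT ligands 4 passed the filter on low values, and all 4 were called, 3 higher and 1 lower, between DMSO-treated irradiated and proliferating cells, beside 72.4% of all genes. WNT16, a ligand known to be raised in senescent fibroblasts, rose from 149.6 ± 13.8 to 1977 ± 42.5 normalized counts, by 3.72 ± 0.07 on the log2 scale (limma adjusted p = 4.55e-15). WNT7B fell from 149.5 ± 28.3 to 11 ± 5.14, a change of -3.73 ± 0.46 (limma adjusted p = 2.35e-06). With palbociclib WNT16 was 1554 ± 85.6, below DMSO by a change of -0.35 (limma adjusted p = 8.22e-04), and with ruxolitinib it was 1839 ± 82.9.

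Receptors and secretion factors were mixed. Of 16 tested, 6 rose and 7 fell with DMSO against proliferating cells, where 72.4% of all genes tested were called. FZD7 (5595 ± 86.1 to 2733 ± 150.6, a change of -1.03), FZD2 (2246 ± 150.8 to 1011 ± 49.7, a change of -1.15) and ROR2, the receptor for WNT5A (109.4 ± 2.30 to 51.88 ± 6.75, a change of -1.07), fell. Their limma adjusted p-values were 2.64e-11, 1.12e-09 and 1.44e-04. With palbociclib against DMSO 8 rose and 5 fell, where 48.3% of all genes were called. With libraries scaled to the same total 3 rose and 5 fell, where 940 of all genes rose and 5170 fell. Among the genes that rose without that rescaling were LRP5, the co-receptor that DKK1 binds (677.3 to 962.5, 0.50, limma adjusted p = 7.12e-05), FZD7 (0.47, limma adjusted p = 1.36e-06) and ROR1 (0.49, limma adjusted p = 6.15e-04). With ruxolitinib 1 of 16 was called, where 4.52% of all genes were, namely FZD8 (-0.30, limma adjusted p = 0.0396), and that call was lost without library A116, A117, A118, A121, A122, A123 or A125 (limma adjusted p from 0.055 to 0.211).

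Of the cytoplasmic and nuclear core of the pathway 22 genes were tested, and 15 fell and 1 rose with DMSO against proliferating cells, where 39.3% of all genes tested fell and 33.0% rose. With libraries scaled to the same total, which moved the median of all genes by 0.23, 8 fell and 6 rose, so the counts of calls in this list depend on the scaling. Over all genes 2970 fell and 5273 rose under that scaling. The median of the list moved with that shift, from -0.31 (beside -0.05 over all genes) to -0.08, and so stayed below that of all genes. TCF7L1, a TCF/LEF factor that mostly represses, fell from 811.8 ± 38.9 to 304.1 ± 17.5 (a change of -1.41, limma adjusted p = 9.66e-11), and the co-repressor TLE3 fell from 748.5 to 384.2 (-0.96, limma adjusted p = 5.70e-09). The gene that rose was BTRC, part of the ubiquitin ligase that marks β-catenin for breakdown (653.6 to 1415, 1.11, limma adjusted p = 8.67e-10).

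With palbociclib 2 of the core genes rose and 5 fell against DMSO, where 48.3% of all genes were called. With the same total 2 rose and 16 fell, and over all genes 940 rose and 5170 fell under that scaling. TCF7, another TCF/LEF factor that is also a target of the pathway, had counts of 160.4, 137.3 and 143.4 with DMSO and 75.25, 50.35 and 62.18 with palbociclib. It fell by 1.23 ± 0.15 on the log2 scale (limma adjusted p = 9.40e-06), and the groups did not overlap. With ruxolitinib it was 155.6 ± 13.3 (0.08 from DMSO, limma adjusted p = 0.864). Between ruxolitinib and DMSO 0 of the 22 core genes were called by limma, 0 by edgeR and 0 by DESeq2, and 1 had an unadjusted limma p under 0.05. Over all genes tested 4.52% were called by limma.

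Other targets and feedback genes did not move as one. Of 4 tested, 1 rose and 2 fell with DMSO against proliferating cells, where 72.4% of all genes were called. With palbociclib against DMSO 2 rose and 2 fell, where 48.3% of all genes were called. With the same total 0 rose and 2 fell, where 940 of all genes rose and 5170 fell. CCND1, which encodes cyclin D1, the partner of the kinases that palbociclib inhibits, rose from 17383 ± 1493 to 58192 ± 461 (1.75, limma adjusted p = 4.09e-12). The receptor gene TNFRSF19 fell from 1916 ± 164.6 to 843 ± 38.01 (-1.18, limma adjusted p = 2.98e-10) and was lower again with palbociclib, at 553.8 ± 22.9 (-0.61, limma adjusted p = 3.43e-06). DACT1, which acts on the Dishevelled proteins, was lower with palbociclib than with DMSO (231.9 against 334.6, -0.53, limma adjusted p = 2.23e-04). MYC, which encodes a growth-promoting transcription factor, went the other way (718.5 against 954.8 with palbociclib, 0.41, limma adjusted p = 4.58e-04), a call that was lost with the same total (0.18, limma adjusted p = 0.0535).

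Of the other secreted antagonists and their partners 2 of 11 listed in the table were tested. KREMEN1, a receptor that works with DKK1, fell with DMSO against proliferating cells (-0.29, limma adjusted p = 0.0185), where 72.4% of all genes tested were called. That call was lost under all 3 other scalings and without library A116 (limma adjusted p = 0.0809). It was also lost by edgeR (adjusted p = 0.053), by DESeq2 (adjusted p = 0.0708) and at a threshold of 0.01. Of 9 genes listed for the R-spondin axis, which amplifies WNT signals, 6 had values, and RSPO1, RSPO2 and RSPO4 did not. Of these 6, 2 were tested, and the receptor gene LGR4 rose in the same comparison (290.8 to 463.6, 0.68, limma adjusted p = 3.13e-06).

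**Figure D4:**
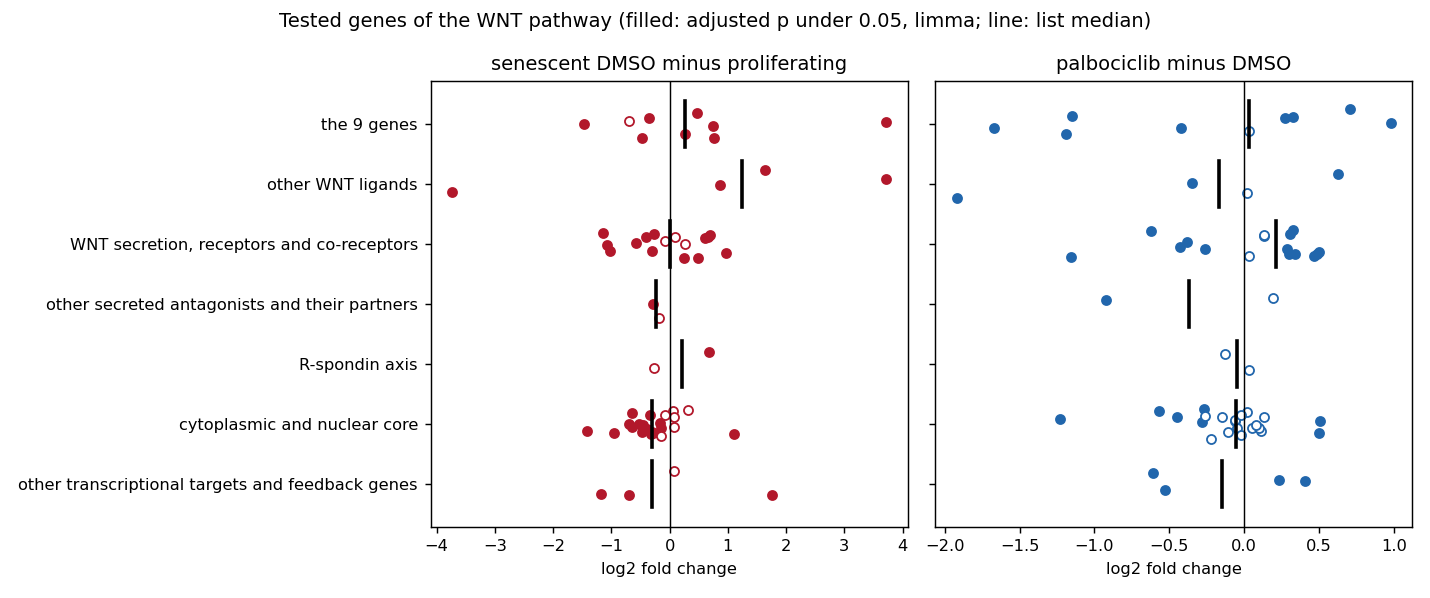
Log2 fold change (x axis, different range in each panel) of the tested genes of each list, with filled points for an adjusted p under 0.05 in limma and the list median as a line. On the left most points of the cytoplasmic and nuclear core lie below 0, where 15 of 22 fell, but scaled to the same total 8 of 22 did. Over all genes 4420 fell and 3714 rose, and scaled to the same total 2970 fell and 5273 rose. On the right the 9 genes lie on both sides of 0, with 4 called in each direction, or 2 higher and 5 lower scaled to the same total. Over all genes 2927 were higher and 2505 lower in that comparison, and scaled to the same total 940 were higher and 5170 lower.

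For each of the 9 genes the table was searched for the genes whose pattern over the 12 libraries was most like it, by the root mean square difference of centred log2 values, where 0 would be the same pattern. For the abundant members the nearest genes were close. The value was 0.0274 for DKK1 with CNBP, 0.0392 for DKK3 with SPATS2, 0.0486 for WNT5A with SEC23A, 0.08 for WNT5B with REEP5 and 0.0872 for SFRP1 with EFNB1. EFNB1, which encodes the membrane ligand ephrin-B1, had means of 398, 695.2, 534.2 and 766.4 in proliferating, DMSO, palbociclib and ruxolitinib cells, the order of SFRP1. For the scarce members the nearest genes were farther off, at 0.26 for LEF1 with PKP1, 0.274 for WNT2 with IMPA2, 0.412 for AXIN2 with RASL11B and 0.507 for DKK2 with RGS18. The value grows with a member's own spread and with counting error, so the 2 sets cannot be compared directly. The SD of log2 values over the 12 libraries was 0.185 to 0.449 for the abundant members and 0.675 to 1.55 for the scarce ones. None of the 9 was the nearest or the second nearest gene of another. The second nearest were PSMC6, ADPGK, TMX3, PGRMC2, PARD6G, CD74, PCK2, KLF17 and ADCY10 for DKK1, DKK3, WNT5A, WNT5B, SFRP1, LEF1, WNT2, AXIN2 and DKK2.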

How the data were processed

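The authors deposited 1 table of normalized counts, here treated as a signal, in 12 columns whose names carry a group and a library number (A116 to A127) but no replicate number. Per the submitters' processing notes the tools were Trimmomatic 0.38.1, HISAT2 2.2.1, featureCounts 2.0.3, FastQC 0.74, MultiQC and DESeq2 2.11.40.8, with hg38 and GRCh38 as builds. The annotation and the strand setting are not given in the sources used here. Each of 160380 values above 0 was a whole multiple, within 0.01 of a read, of what 1 read was worth in its library, so reads were recovered for count tests. Genes above Entrez number 140467 were not analysed here, and 0 columns of values were left unused.

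Values were tested as log2(normalized count + 1), a scale that understates changes of low genes, with limma 3.58.1 in R 4.3.3. The model had 4 group means over all 12 libraries and a mean-variance trend, tests were two-sided, and p-values were adjusted by Benjamini-Hochberg over the 11242 genes whose mean reached 10. Genes under an adjusted p of 0.05 count as called. The members and lists were chosen with earlier results of these data known. Of the other pathway genes, those named were called and reached a mean of 100 in the higher group, up to 3 per list and comparison by size of change. Genes of like pattern are the 2 nearest to each member. LGR5, RSPO3 and WNT11 and the ratios were named after their values were seen. Alternatives were other pseudocounts, filters and scalings, edgeR 4.0.16 and DESeq2 1.42.0 on the recovered reads, a threshold of 0.01, and fits without 1 library each. The limma, edgeR and DESeq2 steps were tested on simulated data. Exon lengths came from GENCODE v44 and promoters from RefSeq.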

Additional observations from a re-analysis of the deposited data

How the results depend on the processing

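Of 39 differences of the 9 genes that were called over the 6 comparisons, 28 kept their direction and call in all alternatives run for them, and 11 did not in at least 1. The differences that reversed were those of DKK1 between palbociclib and DMSO (-0.19 with the same total, -0.03 with equal upper quartiles, -0.05 without library A120, within a range of -0.05 to 0.09 over the fits without 1 library) and between palbociclib and ruxolitinib (-0.10 with the same total). After quantile normalization DKK3 reversed between palbociclib and DMSO (-0.15) and between palbociclib and ruxolitinib (-0.06), DKK2 between palbociclib and ruxolitinib (0.16) and LEF1 between ruxolitinib and proliferating cells (-0.16). With a mean of at least 50 only 5 members were tested, and the number called was 5 for DMSO against proliferating, 4 for palbociclib against DMSO, 4 for palbociclib against ruxolitinib and 5 for palbociclib against proliferating. The number of all genes called with that filter is not given here. After quantile normalization the number of members called was 5 for palbociclib against DMSO, 0 for ruxolitinib against DMSO and 4 for palbociclib against ruxolitinib. Over all genes 2726, 191 and 1976 were then higher in these comparisons, and 2269, 392 and 1935 lower. The cause was not tested. For ruxolitinib against DMSO the number of members called was 0 by limma without a trend and 0 at an adjusted p under 0.01. It was 2 with only the 2 groups, 2 by DESeq2, and 0 to 1 with 1 library left out (0 without A116, A118, A122, A123 or A124).

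Over all genes, 508 were called between ruxolitinib and DMSO, but 1841 with only the 2 groups, 246 at 0.01 and 261 to 295 without A116, A117, A118, A122, A123 or A124. Between palbociclib and ruxolitinib 4544 were called, and 3022 at 0.01. Of 58 named differences of other pathway genes, 54 kept direction and call in all alternatives run for them, and those of FZD8, KREMEN1, MYC and WNT16 did not in at least 1. No paired analysis was possible because the columns carry no replicate number. The 4 scarce members had 1 to 75 reads per library, which limits their precision.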

Other observations

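RSPO3, LGR5 and WNT11, all from the lists above, had means under 10 over all libraries and were not tested, and they were chosen after their values were seen. RSPO3, a secreted amplifier of WNT signals, had 12.98 ± 2.07 normalized counts (SD, n = 3) with DMSO, beside 2.74 ± 3.95 in proliferating cells, 1.10 ± 1.10 with palbociclib and 4.55 ± 2.71 with ruxolitinib. The DMSO libraries lay above all others. LGR5, a receptor for R-spondins and a known target of β-catenin, had 0 reads in all 3 proliferating libraries, 6 to 11 with DMSO, 3 to 6 with palbociclib and 9 to 15 with ruxolitinib. WNT11, a ligand that mostly acts without β-catenin, had 0 to 1 reads in proliferating cells, 4 to 21 with DMSO, 2 to 6 with palbociclib and 2 to 15 with ruxolitinib, and the irradiated groups overlapped.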
